A study of Mus musculus with 11 samples.

Results

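The genes of the translation initiation factors and their direct regulators were examined among the RNA fragments that copurified with FMRP, the RNA-binding protein missing in Fragile X syndrome, from mouse brain. Members were all rows of the count table with a symbol that begins with Eif and a digit from 1 to 6, except those marked as pseudogenes by -ps. This gave 55 of 30986 rows. Of these, 54 were placed in 12 role groups, and Eif2c5, a row with 10 counts and no coding length, was given none. The samples are cerebellum (n = 2), cortex (n = 3) and hippocampus (n = 4) of mice at postnatal day 13. Tissue of each region was crosslinked with ultraviolet light, FMRP was immunoprecipitated and the recovered RNA was sequenced as a small RNA library. The sources used here give no strain, genotype or sex of the mice. All samples are FMRP immunoprecipitates, and neither an input nor a tissue without FMRP was analysed here, so the amount of an RNA and its binding by FMRP cannot be told apart.

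Initiation factors bring the small ribosomal subunit with the initiator tRNA to the start codon of an mRNA. The eIF4G proteins are the large scaffolds of this process: they join the cap-binding protein eIF4E, the helicase eIF4A and, through eIF3, the ribosome. Factor eIF2 carries the initiator tRNA, eIF2B reloads it with GTP, and stress-activated kinases stop that cycle by phosphorylating eIF2. FMRP is known in brain as a repressor of translation, and its partner CYFIP1 binds eIF4E.

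Stretches of the coding sequences of the 3 scaffold genes are printed because these genes hold nearly as many counts as the other 52 members. Each is the 90-base window with the most matches to a set of 4 short words that earlier crosslinking work in human cells reported as frequent at FMRP sites. In DNA letters, the first pair of words is TGGA with its variant AGGA, and the second pair is the word ACTG with its variant ACTT. Capitals mark the matches, which may overlap one another. They were sought in the coding strand, since the RNA carries that strand. The sequences run 5′ to 3′ and come from the GENCODE M21 transcripts of GRCm38, with positions counted from the first coding base. Eif4g1 lies at chr16:20668313-20692884 on the plus strand (coding bases 1371 to 1460), Eif4g2 at chr7:111067750-111083030 on the minus strand (1036 to 1125) and Eif4g3 at chr4:137993022-138208508 on the plus strand (3062 to 3151).
Eif4g1: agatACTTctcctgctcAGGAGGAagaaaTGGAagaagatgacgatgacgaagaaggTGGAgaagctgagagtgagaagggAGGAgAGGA
Eif4g2: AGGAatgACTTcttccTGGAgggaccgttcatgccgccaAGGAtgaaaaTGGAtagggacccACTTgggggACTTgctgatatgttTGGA
Eif4g3: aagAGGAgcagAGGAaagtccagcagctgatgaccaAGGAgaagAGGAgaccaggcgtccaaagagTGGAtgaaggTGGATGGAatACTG

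The windows hold 7 matches in Eif4g1 and 8 each in Eif4g2 and Eif4g3. Of 21972 coding genes, 33.35% reach 7 matches in their best window and 14.96% reach 8. These shares are over genes of any length, and a longer coding sequence offers more windows. The scaffolds have 2718 to 4800 coding bases, and genes of like length were not set apart. Over the whole coding sequence Eif4g2 has 32.7 matches per kilobase, Eif4g3 30.2 and Eif4g1 25.2. Among 22017 coding genes these stand at percentiles 90.08, 82.03 and 53.53, around a median of 24.69 and quartiles of 20.58 and 28.68. The members with a coding length ranged from 16.5 to 39.58, with a median of 26.38. A match is a string of letters and no measured site.

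Library totals ran from 11898 counts in cortex 3 to 197382 in cerebellum 2. Hippocampus 1 and 2 agreed within sampling noise (chi-square over 1873 rows of 1.03 per degree of freedom, p = 0.191, while 13 other pairs had 1.51 to 22.1) and were summed as hippocampus 1+2. Among marker genes, 7 granule cell genes summed to 5522 to 6956 counts per 1000000 of the library total (CPM) in cerebellum, 228 to 672 CPM in cortex and 353 to 650.2 CPM in hippocampus. Of forebrain excitatory neuron genes, 6 summed to 419 to 441 CPM in cerebellum, 672 to 2761 in cortex and 1764 to 2880 CPM in hippocampus. Of hippocampal neuron genes, 3 summed to 958 to 1069 CPM in cerebellum, 336 to 466 in cortex and 742 to 2462 CPM in hippocampus. The first set was highest in cerebellum and the second in forebrain, while the third separated hippocampus from cortex but not from cerebellum. A library whose title names cortex and whose tissue label names hippocampus was placed in neither region. The 9 samples hold 2482 counts on the members, and a single count is worth 5.07 CPM in cerebellum 2 and 84.0 CPM in cortex 3. Intervals of levels and shares take in counting error only. They treat each count as an independent molecule, which amplified fragments are not, so they may be too narrow even for that.

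Eif4g1, Eif4g2 and Eif4g3 took 1197 of the 2482 counts, or 48.23%, while they make up 15.09% of the members' summed coding length. Over the 9 samples they ranked 173 (Eif4g1), 92 (Eif4g2) and 179 (Eif4g3) of all rows by mean CPM. They were the 3 members among the 1000 highest rows. Only Eif3a, the largest eIF3 subunit, and Eif4b, the cofactor of the eIF4A helicase, also passed the filter on low counts, so 5 members could be tested and 50 could not. Of the 35 members with a coding length under 1500 bases, 0 passed, and their highest mean was 105 CPM.

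Eif4g2 encodes a scaffold that lacks the eIF4E-binding part and starts at a GTG codon. It had 1037 and 806 CPM in the cerebellum samples. In cortex it had 1074, 717 and 420 CPM. In hippocampus it had 790 CPM in hippocampus 1+2, 247 in hippocampus 3, 182 in hippocampus 4 and 790 in hippocampus 5. Both cerebellum samples thus lay inside the range of the cortex samples. The lower of them (806 CPM) was only just above hippocampus 1+2 and hippocampus 5 (790 CPM each), with overlapping counting intervals. The 4 hippocampus samples split into a higher and a lower pair. The 95% exact intervals of the lower pair were 166 to 355 CPM in hippocampus 3 and 49.7 to 467 CPM in hippocampus 4, which rests on 4 counts. Both lay below the interval of hippocampus 1+2, 645 to 959 CPM.

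Eif4g1 is the scaffold of the canonical cap-binding complex. Its level was 482 and 598 CPM in cerebellum, 879, 574 and 336 CPM in cortex, and 668, 298, 273 and 372 CPM in hippocampus. The highest and the third lowest of the 9 values were both from cortex, and the cerebellum samples stood between them. Eif4g3, a close relative of Eif4g1 that binds the same partners, had 524 and 532 CPM in cerebellum. It had 846, 717 and 252 CPM in cortex, and 522, 332, 228 and 418 CPM in hippocampus. As for Eif4g1, cortex 1 was highest. The cerebellum samples lay inside the cortex range and just above the highest hippocampus sample.

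Eif3a had 209.5 and 207.7 CPM in cerebellum, 65.1, 143 and 252 CPM in cortex, and 92.1, 102, 137 and 232 CPM in hippocampus. Cortex 3 and hippocampus 5, which each rest on 3 to 5 counts of this gene, exceeded cerebellum, so the regions overlapped. Eif4b had 94.3 and 106.4 CPM in cerebellum, 195, 161 and 84.0 CPM in cortex, and 138, 51.1, 91.1 and 186 CPM in hippocampus. Here too the cerebellum values fell inside the range of both other regions.

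**Figure D1:**
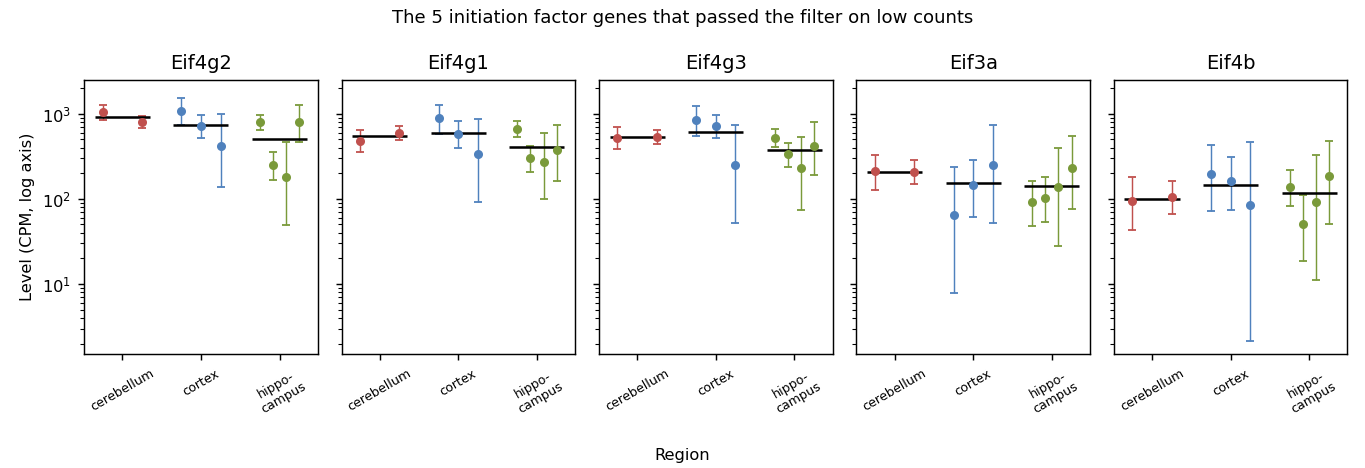
Level of the 5 tested initiation factor genes in each sample, in CPM on a log axis, by region (cerebellum, cortex, hippocampus). Points are samples in replicate order with exact 95% counting intervals and black lines are region means. Cerebellum and cortex overlap for all 5 genes. For Eif4g2 and Eif4g3 the lower cerebellum sample lies just above the highest hippocampus sample, with overlapping intervals. The intervals are widest in the shallow cortex and hippocampus samples.

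Between regions, 0 of the 5 tested members passed an adjusted p of 0.05 in edgeR's quasi-likelihood test. In the comparison of cerebellum with the mean of cortex and hippocampus (forebrain), 7.67% of all 1720 tested rows passed, 3.9% higher and 3.78% lower in cerebellum. Between cortex and hippocampus 0% of the rows passed (0 rows, with 68 at an unadjusted p under 0.05). None of the 5 members had an unadjusted p under 0.05 in edgeR in either comparison, and DESeq2 called 0 of the 5 in each. In bulk tissue, fewer cells of a type and less RNA per cell cannot be told apart. The labels do not say that libraries came from separate animals, so these p-values measure the spread between libraries, which may be technical.

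The nearest to a difference was Eif3a, with 209 ± 1.28 CPM in cerebellum (SD, n = 2) and 146 ± 70.9 CPM in forebrain (n = 7). Its log2 fold change was 1.11 (SE 0.62, 95% interval -0.10 to 2.33, edgeR adjusted p = 0.350). Eif4g2 averaged 921 ± 164 CPM in cerebellum and 603 ± 327 CPM in forebrain, a log2 fold change of 0.60 (SE 0.48, interval -0.34 to 1.54, edgeR adjusted p = 0.622). These intervals reach more than a doubling, so a sizeable difference is not shown to be absent. For Eif4g1 the means were 539.9 ± 82.0 CPM in cerebellum and 486 ± 228 CPM in forebrain, while the log2 fold change was -0.19 (SE 0.48, interval -1.12 to 0.74, edgeR adjusted p = 0.934). Eif4g3 likewise had 528 ± 5.76 CPM in cerebellum, 474 ± 236 CPM in forebrain and a log2 fold change of -0.18 (SE 0.46, interval -1.09 to 0.73, edgeR adjusted p = 0.934). The fit compares samples within the numeric code of their titles and rescales the libraries, and without the code as a block both signs turned, to 0.16 for Eif4g1 and 0.14 for Eif4g3. Eif4b had 100.3 ± 8.56 CPM in cerebellum, 129.6 ± 55.2 CPM in forebrain and a log2 fold change of -0.18 (SE 0.73, interval -1.62 to 1.26, edgeR adjusted p = 0.964). The median log2 fold change of the 5 was -0.18, beside 0.0023 over all 1720 rows.

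Within the title code of cerebellum 1, which also holds cortex 1 and hippocampus 1+2, the log2 ratio of CPM between cerebellum and forebrain was 1.41 for Eif3a, 0.15 for Eif4g2, -0.68 for Eif4g1, -0.39 for Eif4g3 and -0.82 for Eif4b. Within the code of cerebellum 2, with hippocampus 3 alone for forebrain, it was 1.02, 1.70, 1.003, 0.68 and 1.06 for the same genes in that order. Eif3a and Eif4g2 thus had positive ratios within both codes, although Eif4g2 in cerebellum 1 (1037 CPM) was below cortex 1 (1074 CPM). The other 3 genes changed sign between the codes.

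Cortex was set against hippocampus as the pair of forebrain regions. Eif4g3 had the highest log2 fold change of the 5 at 0.52 (SE 0.47, interval -0.39 to 1.43), with 605 ± 312 CPM over the 3 cortex samples and 375 ± 125 CPM over the 4 hippocampus samples. Eif4g1 had 596 ± 272 CPM in cortex against 403 ± 181 CPM in hippocampus (log2 fold change 0.36, SE 0.47), and Eif4g2 737 ± 327 against 502 ± 333 CPM (0.27, SE 0.46). Eif3a had 154 ± 93.9 CPM in cortex and 141 ± 63.9 CPM in hippocampus with a log2 fold change of -0.52 (SE 0.71), and Eif4b 147 ± 57.0 and 117 ± 58.3 CPM with 0.12 (SE 0.74). Each of the 5 had an adjusted p of 0.999 in edgeR. Their median log2 fold change was 0.27, beside -0.037 over all rows. Within title codes the ratios were 0.70 and 0.59 for Eif4g3, 0.40 and 0.50 for Eif4g1 and 0.44 and 0.23 for Eif4g2, in the code of cortex 1 and in that of cortex 2 and 3. Eif3a had -0.50 and 0.10 and Eif4b 0.50 and -0.17, so both changed sign between the codes.

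**Figure D2:**
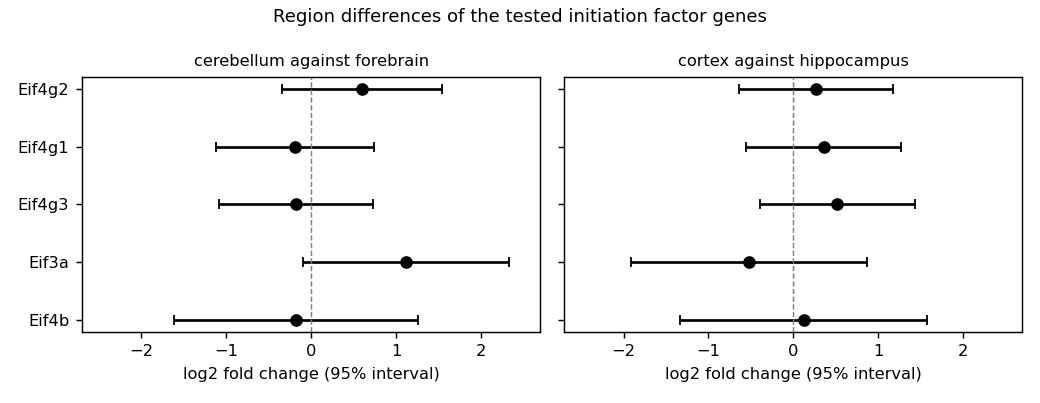
Log2 fold change of the 5 tested genes between cerebellum and forebrain (left) and between cortex and hippocampus (right). Points are edgeR estimates and bars 95% intervals (1.96 SE); every bar crosses 0.

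Summed over all 55 members, the level was 3887 and 3901 CPM in cerebellum, 4199, 4249 and 3614 CPM in cortex, and 3684, 2719, 2279 and 3855 CPM in hippocampus. Region means were 3894 ± 10.2 CPM in cerebellum, 4021 ± 353 in cortex and 3134 ± 758 CPM in hippocampus. The 2 cerebellum samples fell between the lowest and the highest cortex sample, and hippocampus 5 and hippocampus 1+2 overlapped the cortex range. The log2 ratio of means was 0.15 for cerebellum over forebrain and 0.36 for cortex over hippocampus, against a pooled SD of 0.27 between samples of a region. The second ratio depended on the scale: with TMM factors, which correct library totals for their make-up, it was 0.022. With library totals alone the median of all tested rows itself lay at 0.24 between cortex and hippocampus, and at 0.12 between cerebellum and forebrain.

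The scaffolds and the other members were then summed apart. The scaffold sum was 2043 and 1935 CPM in cerebellum, 2799, 2008 and 1009 CPM in cortex, and 1980, 878, 684 and 1579 CPM in hippocampus. The other 52 members summed to 1844 and 1966 CPM in cerebellum, 1400, 2241 and 2605 CPM in cortex, and 1704, 1841, 1595 and 2276 CPM in hippocampus. The scaffold sum had the wider range, and cortex 1, its highest sample, was the lowest for the other members, and cortex 3 was the highest for these. As region means, the scaffolds had 1989 ± 76.0 CPM in cerebellum, 1939 ± 897 in cortex and 1280 ± 605 CPM in hippocampus. The other members had 1905 ± 86.2, 2082 ± 618 and 1854 ± 299 CPM in the same order of regions.

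As a share of all member counts, the scaffolds held 52.6% (95% Wilson interval 47.5 to 57.6%) in cerebellum 1 and 49.6% (46.1 to 53.1%) in cerebellum 2. In cortex the share was 66.7% (58.2 to 74.2%), 47.3% (41.0 to 53.6%) and 27.9% (16.7 to 42.7%). In hippocampus it was 53.8% (49.3 to 58.2%), 32.3% (27.4 to 37.6%), 30% (19.1 to 43.8%) and 41.0% (31.0 to 51.7%). The intervals of cortex 1 and cortex 3 do not meet, so samples of a single region differed beyond these counting intervals. Mean shares were 51.1 ± 2.09% in cerebellum, 47.3 ± 19.4% in cortex and 39.3 ± 10.8% in hippocampus. Cerebellum lay 8.40 percentage points above forebrain and cortex 8.03 points above hippocampus, both less than the pooled SD of 13.6 points between samples of a region.

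**Figure D3:**
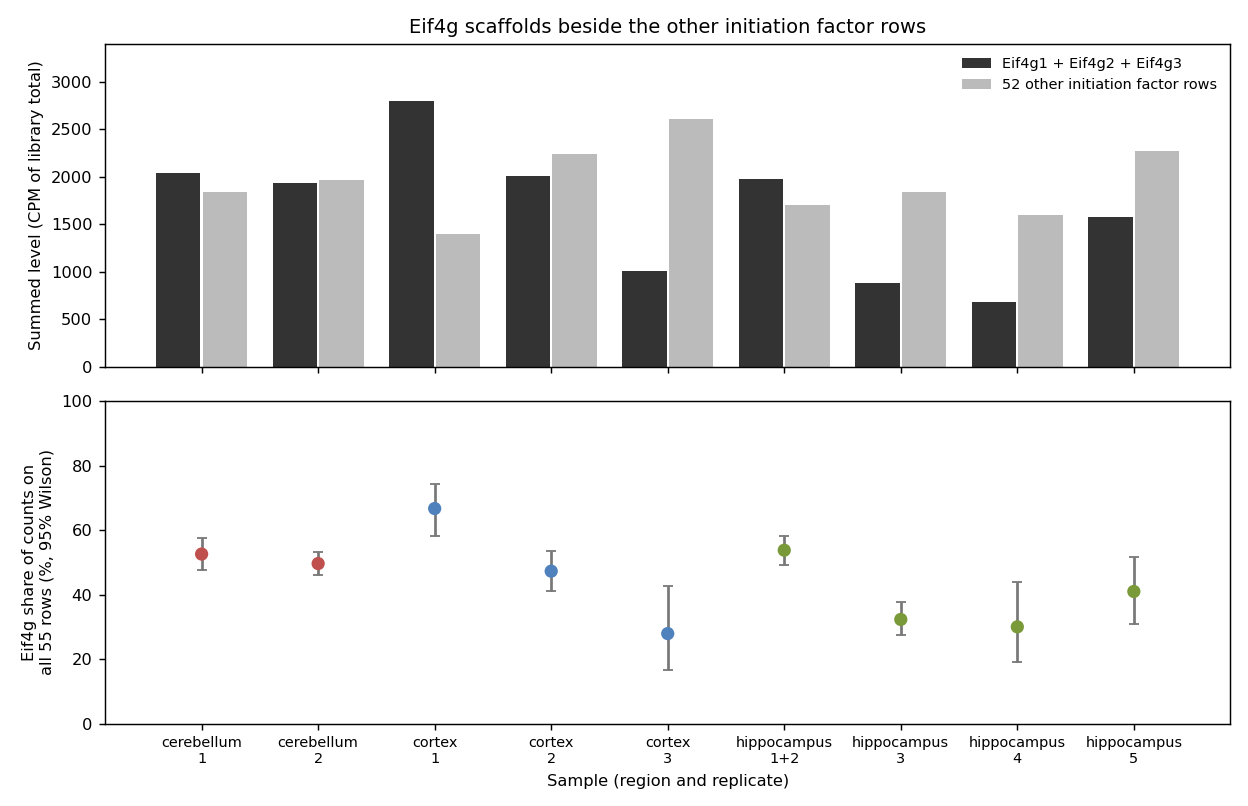
Upper panel: summed level of the 3 Eif4g scaffolds (dark) and of the 52 other members (light) in each sample, in CPM. Lower panel: scaffold share of member counts in percent, with 95% Wilson intervals; cortex 3, hippocampus 3 and hippocampus 4 have the lowest shares, from 27.9 to 32.3%.

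The 3 samples with the lowest scaffold shares stood apart in other respects. Rows named as predicted genes by Gm and a number took 12.5% of counts in cortex 3, 12.6% in hippocampus 3 and 12.2% in hippocampus 4, against 3.105 to 7.49% in the other 6 samples. The sum of Apc, Map1b, Kif1a and Ank2, abundant neuronal mRNAs, was 9245, 3861 and 11256 CPM in those 3, against 20298 to 32372 CPM in the other forebrain samples and 10885 and 10908 CPM in cerebellum. Ribosomal protein genes, which are short, summed to 672 to 1185 CPM over the 9 samples, with 672, 946 and 1185 CPM in the 3. The part of these differences in the scaffold share was not tested. Without the 3 samples the share in cerebellum lay 1.07 points below forebrain (a difference of -1.07), so the direction of that difference rests on them. Leaving out cortex 1 alone turned the difference between cortex and hippocampus to -1.67 points, and leaving out cortex 3 alone gave 17.7 points.

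Levels of different genes were compared per kilobase of coding length, for 54 members. Eif4g2 averaged 248 CPM per kilobase over the 9 samples, Eif4g1 104 and Eif4g3 103. The median of the other members was 20.5 CPM per kilobase, and that of all 18936 rows with a coding length was 13.4. Relative to the median of the other members, Eif4g2 was 12.1-fold, Eif4g1 5.06-fold and Eif4g3 5.01-fold. In each sample the scaffolds together had a higher level per kilobase than the other members together, by 6.23- and 5.54-fold in cerebellum, 11.2-, 5.04- and 2.18-fold in cortex, and 6.54-, 2.68-, 2.41- and 3.90-fold in hippocampus. The gap was narrowest in cortex 3, hippocampus 3 and hippocampus 4. This follows from their low scaffold shares: the coding lengths are the same in each sample, so these folds restate the shares on another scale.

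Small members were not uniformly low on this scale. The 35 members under 1500 coding bases had a median of 20.5 CPM per kilobase. Eif4ebp2 stood at 292 CPM per kilobase and Eif1b at 111, both above Eif4g3, the lowest of the scaffolds. Eif1b rests on 20 counts, and without hippocampus 5 (139 CPM on 3 counts) it stood at 74.0 CPM per kilobase, below Eif4g3. The divisor matters for these: Eif4ebp2 has a coding length of 360 bases in transcripts of 1422 to 5784 bases, and the counts do not separate fragments of the coding part from those outside it. Per kilobase of whole transcript it had 18.2 to 73.8 CPM, against 88.3 to 91.4 for Eif4g1, 84.3 for Eif4g2 and 79.1 for Eif4g3, and Eif1b had 36.5. On that scale the 3 scaffolds lay close together, with Eif4ebp2 and Eif1b below them. For Eif4g2 the divisor was 1 transcript of 7995 bases, beside 2718 coding bases. The transcripts used for Eif4g1 had 5444 to 5638 bases and that of Eif4g3 had 6139. Across the 54 members, mean CPM and coding length had a Spearman correlation of 0.61, and 0.54 without the scaffolds, over members that share the same libraries.

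**Figure D4:**
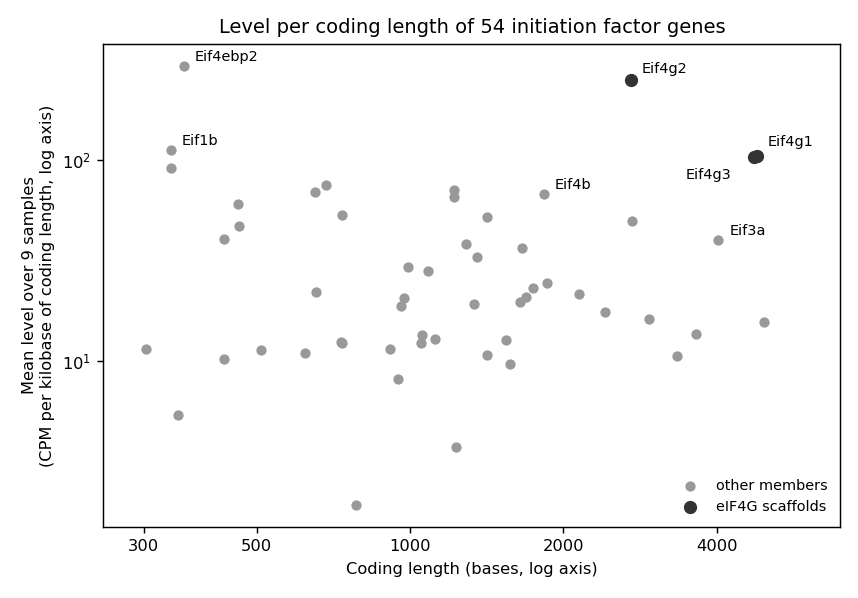
Mean level over the 9 samples in CPM per kilobase of coding length against coding length in bases, both on log axes. Each point is 1 of 54 members; the scaffolds (dark) lie at 103 to 248, and among the other members (light) only Eif4ebp2 and, on 20 counts, Eif1b exceed the lowest scaffold.

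The remaining members are given by role as region means, which rest on few counts and have no test unless stated. In the cap-binding group, the 4 eIF4E genes summed to 99.7 ± 66.9 CPM in cerebellum, 51.9 ± 45.4 in cortex and 136 ± 117 CPM in hippocampus. Eif4e, the cap-binding protein itself, led with 37 counts, at 45.9 ± 35.3, 17.9 ± 31.0 and 64.7 ± 56.3 CPM in these regions, and was at 0 counts in cortex 1, cortex 3 and hippocampus 5. A count of 0 there allows up to 97.7, 252.1 and 139 CPM, so the zeros carry little weight.

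The inhibitors that hold eIF4E away from the scaffolds summed to 234 ± 19.97 CPM in cerebellum, 154 ± 93.9 in cortex and 123 ± 55.5 CPM in hippocampus (4 genes). Eif4ebp2, the main such inhibitor in brain, had 178 and 147 CPM in cerebellum, 65.1, 71.7 and 252 CPM in cortex, and 53.7, 85.2, 45.6 and 46.4 CPM in hippocampus. All 4 hippocampus samples and 2 of the 3 cortex samples lay below both cerebellum samples, and cortex 3, on 3 counts, lay above them. The low values rest on few counts too, with 2 in cortex 1, 4 in cortex 2 and 1 each in hippocampus 4 and hippocampus 5. The exact 95% intervals of the last 2 samples reach 254 and 259 CPM, above both cerebellum values. Eif4ebp2 did not pass the filter on low counts.

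The helicase group of eIF4A genes and their cofactors (5 genes) summed to 239 ± 41.7 CPM in cerebellum, 402 ± 184 in cortex and 354 ± 301 CPM in hippocampus. Besides Eif4b, the cofactor gene Eif4h had 25.7 ± 6.68 CPM in cerebellum, 53.8 ± 93.1 in cortex and 62.2 ± 52.1 CPM in hippocampus. Per coding length Eif4h led this group at 74.97 CPM per kilobase, beside 67.1 for Eif4b. For both the group and Eif4h, the largest SD exceeds the distances between the region means.

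The 13 genes of eIF3, the complex that binds the scaffolds to the ribosome, summed to 558 ± 34.2 CPM in cerebellum, 686 ± 385 in cortex and 429.9 ± 102 CPM in hippocampus. They ranged from 1.93 to 49.7 CPM per kilobase, all below the 3 scaffolds. Eif3c, a core subunit, was highest per kilobase, at 113 ± 2.67 CPM in cerebellum, 209.6 ± 187 in cortex and 91.5 ± 36.4 CPM in hippocampus. Its cortex mean rests on cortex 3, with 420.2 CPM on 5 counts, beside 65.1 and 143 CPM in cortex 1 and 2. Eif3a stood at 39.7 CPM per kilobase.

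The 4 rows of eIF2 subunits summed to 103 ± 12.1 CPM in cerebellum, 119.6 ± 51.8 in cortex and 142 ± 127 CPM in hippocampus, with Eif2s3x, the X-linked gene of the gamma subunit, in the lead at 54.1 ± 2.37, 85.9 ± 84.1 and 74.3 ± 106 CPM in that order. For eIF2B, the exchange factor of eIF2, the 5 genes summed to 94.9 ± 30.5 CPM in cerebellum, 217 ± 193 in cortex and 80.6 ± 23.6 CPM in hippocampus. Eif2b5, its catalytic subunit, had the highest mean CPM of that group, with 51.5 ± 1.21, 83.7 ± 76.8 and 15.8 ± 21.7 CPM, and Eif2b3 the highest level per kilobase (32.7 CPM, with 20.4 ± 14.1, 94.9 ± 137 and 18.3 ± 21.7 CPM by region). The 4 eIF2 kinase genes summed to 205 ± 95.9 CPM in cerebellum, 203 ± 108 in cortex and 145 ± 74.9 CPM in hippocampus. Eif2ak4, which encodes the amino acid sensor GCN2, had 67.1 ± 8.87, 107 ± 23.1 and 60.2 ± 57.1 CPM, and Eif2ak1, the heme-regulated kinase, had 46.8 ± 37.5, 56.5 ± 50.6 and 35.7 ± 24.2 CPM.

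Among the start codon factors eIF1 and eIF1A (5 genes), the sum was 79.9 ± 5.53 CPM in cerebellum, 63.5 ± 62.8 in cortex and 129 ± 105 CPM in hippocampus, and Eif1b, a close relative of the start codon factor eIF1, had 10.3 ± 0.24, 34.8 ± 35.9 and 53.8 ± 64.7 CPM in these regions. The joining factors eIF5 and eIF5B with eIF6 summed to 139 ± 4.01, 61.3 ± 65.4 and 128 ± 29.8 CPM. Eif5b, the GTPase of subunit joining, led there with 79.9 ± 5.53 CPM in cerebellum, 21.7 ± 37.6 in cortex and 55.8 ± 40.5 CPM in hippocampus, and Eif5, the GTPase activator of eIF2, was highest per kilobase at 38.3 CPM, with 54.1 ± 2.37, 33.7 ± 32.6 and 58.6 ± 27.5 CPM by region. Eif5a2, of the eIF5A pair known for its hypusine residue, had 30.7 ± 13.8 CPM in cerebellum, 0 counts in all 3 cortex samples and 47.0 ± 46.7 CPM in hippocampus. The zeros allow up to 97.7, 53.8 and 252 CPM in cortex 1, 2 and 3, so they carry little weight. Its hippocampus mean leans on hippocampus 3, with 111 CPM on 13 counts, beside 0 to 46.4 CPM in the other hippocampus samples. Eif2d, a factor that can deliver the initiator tRNA without eIF2, had 64.7 ± 27.0, 38.9 ± 42.4 and 73.4 ± 23.9 CPM. Of the 55 members, 8 had counts in all 9 samples and 15 had fewer than 10 counts in total.

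Of other genes of translation and its control, from a list of 41 rows, 9 were tested. In edgeR none of them passed in either comparison or had an unadjusted p under 0.05. Over all 1720 tested rows 7.67% passed between cerebellum and forebrain and 0% between cortex and hippocampus, so the lack of calls among 9 genes says little. Eef2, the factor that moves the ribosome along the mRNA, had 823 ± 68.0 CPM in cerebellum and 598 ± 273 CPM in forebrain (log2 fold change 0.86, SE 0.51, edgeR adjusted p = 0.401). Eef1a1, the factor that delivers tRNAs during elongation, had 177 ± 57.7 CPM in cerebellum and 227 ± 190 CPM in forebrain (log2 fold change -0.09, SE 0.57). Pabpc1, the poly(A)-binding partner of eIF4G, was not tested and had 132 ± 21.3 CPM in cerebellum, 125 ± 38.9 in cortex and 155 ± 19.1 CPM in hippocampus. Cyfip2, a relative of the eIF4E-binding partner of FMRP, had 631 ± 32.5 CPM in cerebellum and 845 ± 435 CPM in forebrain (log2 fold change 0.21, SE 0.52).

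Small RNA genes lie inside several of these loci. In the annotation, Eif4g1 hosts Snord66, Eif4g2 the small nucleolar RNA gene Gm23262 and Eif3a Snora19, while Eif4g3 overlaps the antisense gene 1700095J12Rik. Use of strand in the deposited counts is not given in the sources used here, so fragments of host and embedded gene cannot be told apart. No annotated gene overlaps Eif4b. Eif1 and Eif1b, and likewise Eif4a1 and Eif4a2, are close copies whose shared fragments could be split between rows, so their values are uncertain.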

How the data were processed

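Fragment counts per gene symbol were deposited by the authors for 11 libraries of FMRP immunoprecipitates. The submitters' processing notes name mm10, Bowtie 0.12.7 and Picard. The counting program, its annotation, and its treatment of strand and of fragments with several matches are not stated in the sources used here. Counts were used as deposited, and CPM are counts per 1000000 of the library total (11898 to 197382 counts).

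All 9 samples entered 1 fit with edgeR 4.0.16 (R 4.3.3): TMM factors, filterByExpr by region (minimum count 10), the numeric title code as a block, the quasi-likelihood test and Benjamini-Hochberg adjustment over 1720 rows. The fit has 4 residual degrees of freedom. The p-values do not rest on these 4 alone, since the quasi-likelihood test shares the spread over all tested rows. What the title codes stand for is not stated in the labels, and values within codes are given beside the results. SE is the absolute log2 fold change over the square root of F and is approximate. The procedure was tested on simulated data, in which the changes were larger than any estimate given here for a member and all rows had the same spread. That run cannot say whether changes of the members' size would be found. Sums and shares have no test. A count of 0 allows up to 3 counts.

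Members and lists were chosen with earlier results of these data known. Values per sample are given for tested members and the Eif4g genes, and region means for the member highest in mean CPM and the one highest per coding length in each role group. The values of Eif4ebp2 and Eif3c by sample were added after they were seen. Cyfip1 and Cyfip2 were not among the genes planned to be given with values. Coding lengths are from GENCODE M21 (longest coding sequence of the principal transcripts). Alternatives were DESeq2 1.42.0, library totals alone, no filter, no block, 10 separate libraries, the library of conflicting labels counted as cortex, other member sets and samples left out. Transcript length as divisor, and samples left out of the levels per kilobase, were added after seeing the data.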

Additional observations from a re-analysis of the deposited data

Results flagged for a closer look

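The scaffold share of member counts differed between title codes. Within the code of cerebellum 1 it was lower in cerebellum than in forebrain, by -7.65 percentage points, and within the code of cerebellum 2 it was higher by 17.3 points. Eif4g1 had a log2 ratio of CPM of -0.68 in the first code and 1.003 in the second, and Eif4b had -0.82 and 1.06. In the first code the cerebellum sample lay on 1 side of both forebrain samples, and in the second, which holds 1 sample of each kind, on the other side. The difference between the codes was not tested.

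The library with conflicting region labels, which entered no comparison, held 90 counts on the members together, or 2966 CPM. A summed count of 0 would allow up to 3 counts there, or 98.9 CPM.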

How the results depend on the processing

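No member was called in either comparison under any of the 16 alternatives run. Apart from the fit without cortex 3, hippocampus 3 and hippocampus 4 together, the lowest adjusted p of a member was 0.211. It was for Eif3a in edgeR at a log2 fold change of 1.21, without cortex 3. Without those 3 samples Eif3a had a log2 fold change of 1.56. That fit leaves cerebellum 2 alone in its title code, which is the block, so only cerebellum 1 informs the cerebellum comparison. The rows called between cerebellum and forebrain in that fit have the same limit. The number of all rows called between cerebellum and forebrain (132) was 54 with library totals alone (37 higher, 17 lower), 87 in DESeq2, 1 without the filter and 215 without those 3 samples. With single samples left out it ran from 2 to 176: it was 2 without cerebellum 1, 17 without cerebellum 2, 15 without cortex 1 and 81 without hippocampus 1+2. Without the replicate block it was 156 (93 higher, 63 lower), with 0 members called. Between cortex and hippocampus it was 1 in DESeq2, 1 with 10 separate libraries, 1 with the library of conflicting labels as cortex and 3 without the 3 samples, and 0 to 1 with single samples left out (1 without hippocampus 3).

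Signs of uncalled members turned. Between cerebellum and forebrain, removing the filter gave 0.17 for Eif4g1, 0.17 for Eif4g3 and 0.17 for Eif4b, and removing the replicate block gave 0.16 for Eif4g1 and 0.14 for Eif4g3. Leaving out single samples moved Eif4g1 from -0.48 (without hippocampus 3) to 0.42 (without cerebellum 1). The fit without hippocampus 3 also leaves cerebellum 2 alone in its title code, so only cerebellum 1 informs that value. Eif4b moved from -0.20 to 0.042 (0.042 without cortex 1), and between cortex and hippocampus from -0.025 (without cortex 1) to 0.37. With single samples left out, the log2 ratio of the member sum ran from 0.07 to 0.20 for cerebellum and from 0.23 to 0.47 for cortex, and the difference in scaffold share from 5.93 to 12.4 and from -1.67 to 17.7 points. Between cerebellum and forebrain the member sum had a log2 ratio of 0.52 within the title code of cerebellum 2 and -0.020 within that of cerebellum 1. Without cortex 3, hippocampus 3 and hippocampus 4 together this ratio was -0.038, so its direction was not the same in all settings. Within the code of cerebellum 1 the share difference was -7.65 points. With TMM factors the cortex to hippocampus ratio of the member sum was 0.022. The cause of these changes was not tested. Eif4b could be tested in 5 of the 9 settings that leave a sample out. The low depth of cortex 3, hippocampus 4 and hippocampus 5 limits what can be seen of all members: the scaffold genes themselves have 3 to 5 counts each in cortex 3 and 4 to 6 in hippocampus 4.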

Other observations

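In the library whose title and tissue label name different regions, the scaffolds held 24 of 90 member counts, a share of 26.7% (95% Wilson interval 18.6 to 36.6%). Eif4g2 had 527 CPM there, Eif4g1 165 CPM and Eif4g3 98.9 CPM. The other members summed to 2175 CPM, and predicted gene rows took 9.88% of its counts.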
